A study of Mus musculus with 4 samples.

Results

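Cryba2 and Crybb3 encode beta-crystallins, and their levels are described here across the hormone cells of the mouse islet. The genes were taken by symbol, 2 of the 32285 genes in the table, and each symbol had 1 row. They were picked because their levels in these data were already known to differ between cells, so the levels below are a description and no test was run on them. Single-cell RNA-seq was made from dispersed pancreatic islet cells of NOD mice aged 5 weeks. The labels give 2 groups of 2 samples, Xbp1β-/- mice, whose beta cells lose Xbp1, and Xbp1fl/fl mice with the floxed allele. Both groups received tamoxifen at 10 mg/ml by intraperitoneal injection, which induces Cre, and the Cre promoter is not named in the labels. Islets were picked by hand, kept in culture overnight and dissociated before the libraries were made. The 4 libraries are told apart by a number on each cell barcode, and 0 of the 4 numbers match a sample's label. No value below therefore belongs to a genotype, and each library is reported by itself.

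Crystallins are the soluble proteins that fill the cells of the eye lens and keep it clear. The beta and gamma crystallins form one family built from a fold called the Greek key, and the beta-crystallins are split into an acidic branch, to which Cryba2 belongs, and a basic branch, to which Crybb3 belongs. The alpha-crystallins Cryaa and Cryab are small heat shock proteins from another family, and a few metabolic enzymes carry the name because some animals use them as lens proteins. In the lens, crystallin genes are switched on by transcription factors of the Maf family, Pax6, Prox1 and Sox proteins. Islet cells use several of the same factors, and Mafa and Pax6 act on the insulin genes of beta cells.

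Cryba2 (ENSMUSG00000006546) lies on the minus strand of GRCm38 chromosome 1, from 74889934 to 74893143, and Crybb3 (ENSMUSG00000029352) on the minus strand of chromosome 5, from 113075839 to 113081584. In GENCODE M21 both are protein-coding and 0 other genes overlap either of them. The 250 bases before each gene's start are printed because Maf factors, known to act on crystallin genes through such sequences, were measured in the same cells. They come from RefSeq on GRCm38.p6, chr1:74893144-74893393 and chr5:113081585-113081834, both on the minus strand. Capitals mark matches on either strand to the core of the Maf recognition element (GCTGA and TCAGC with any base, N, between them) and to the shorter motif TGCTGA. The core reads the same on both strands, and it overlaps the shorter motif in all letters but the T.
Cryba2: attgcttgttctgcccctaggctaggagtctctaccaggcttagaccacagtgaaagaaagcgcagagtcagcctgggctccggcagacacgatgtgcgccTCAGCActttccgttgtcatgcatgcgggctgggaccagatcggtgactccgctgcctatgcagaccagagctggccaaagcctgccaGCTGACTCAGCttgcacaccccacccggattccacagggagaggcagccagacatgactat
Crybb3: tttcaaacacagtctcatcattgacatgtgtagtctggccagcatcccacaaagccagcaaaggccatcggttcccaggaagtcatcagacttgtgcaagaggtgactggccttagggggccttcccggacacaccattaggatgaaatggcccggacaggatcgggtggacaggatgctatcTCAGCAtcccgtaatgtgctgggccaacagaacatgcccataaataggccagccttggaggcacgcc
The core was found in the Cryba2 window, 61 to 51 bases before the start, and was not found in the Crybb3 window. It was present in 12 of 32851 RefSeq windows of this length (0.0365%). Besides Cryba2 these were the windows of Arap2, Arhgap40, Gm30075, Gm31613, Gm52309, Gm52863, Gm5600, LOC108167736, Lenep, Tmem37 and Xpot. The shorter motif was present at 149 to 144 bases before the start of Cryba2 and at 67 to 62 bases before that of Crybb3, and in 16.1% of all windows. These are matches of letters, and the motifs were chosen with the sequences in view.

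Hormone transcripts defined the classes of cells. A cell was called beta at 5% or more of its unique molecular identifiers (UMIs, each a counted RNA molecule) from Ins2, alpha at 5% from Gcg, delta at 3% from Sst and Ppy at 2% from Ppy. Beta cells were split at 0.5% of UMIs from Spp1, the gene for osteopontin. Of 16146 cells kept, 5765 were Spp1-low beta, 1078 Spp1-high beta, 1919 alpha, 1297 delta and 194 Ppy cells, while 886 passed more than 1 threshold and were left out of the classes. The libraries held 3455 to 5268 cells with a median of 13287 to 33052 UMIs. Library composition differed, since libraries 2 and 4 gave 3189 and 1989 of the Spp1-low beta cells and libraries 1 and 3 gave 233 and 354. By the median over libraries, 7 of 8 beta markers were higher in Spp1-low beta cells than in alpha, delta and Ppy cells, while 5 of 6 alpha markers were highest in alpha cells, 4 of 5 delta markers in delta cells and 3 of 5 polypeptide markers in Ppy cells. The lists hold Ins2, Gcg, Sst and Ppy, which defined the classes, so 1 marker of each count was fixed by the rule. The delta marker Nrg1 was below 1 CPM, which is 1 of 1000000 UMIs, in delta cells. Among kept cells, 28 barcodes occurred in more than 1 library.

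Cryba2 was present in every hormone class, and its highest class was not the same in every library. Levels in CPM are UMIs of the gene per 1000000 UMIs summed over a class, with exact 95% Poisson intervals that cover counting error only. In alpha cells Cryba2 stood at 247, 320.3, 279 and 324 CPM in libraries 1 to 4, with intervals of 230 to 265, 309 to 332, 263 to 296 and 312 to 337. Libraries 1 and 2 did not overlap in counting error, but the range over the 4 libraries was only 1.30-fold, with 10 CPM added throughout. A range of 4-fold or more was found for 1.31% of 3063 genes there.

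In beta cells Cryba2 varied far more between libraries. Spp1-high beta cells held 469, 30.2, 514 and 26.5 CPM in libraries 1 to 4, with intervals of 459 to 479, 25.8 to 35.2, 503 to 525 and 23.2 to 30.1. Spp1-low beta cells held 177, 42.7, 203 and 41.3 CPM in libraries 1 to 4. Libraries 1 and 3 were high and libraries 2 and 4 low in both beta classes, with no overlap. The range over libraries was 14.4-fold in Spp1-high and 4.15-fold in Spp1-low beta cells. A range of at least 4-fold was found for 2.64% of 2763 genes in the Spp1-high and 1.22% of 2303 genes in the Spp1-low beta cells, counting genes at 50 CPM or more in a library. On a total without the 7 hormone genes, Spp1-high beta cells held 722, 68.5, 809 and 58.5 CPM, so the gap between libraries remained on that scale too. Summed over 6 acinar marker genes, Spp1-high beta cells held 2777 CPM in library 1 and 0 to 6.68 in libraries 2 to 4. The part of acinar RNA in these Cryba2 levels was not tested.

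Delta and Ppy cells had less Cryba2. Delta cells held 59.4, 42.6, 53.2 and 44.2 CPM in libraries 1 to 4. Ppy cells held 61.5, 41.5, 69.7 and 45.3 CPM, from 23 and 37 cells in libraries 1 and 3 and 77 and 57 cells in libraries 2 and 4. The counting intervals of delta and Ppy cells overlapped in all 4 libraries, so their order was not resolved. In libraries 1 and 3 the order was Spp1-high beta, alpha, Spp1-low beta and then delta and Ppy cells. In libraries 2 and 4 alpha cells were highest and the other classes lay between 26.5 and 45.3 CPM.

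**Figure D1:**
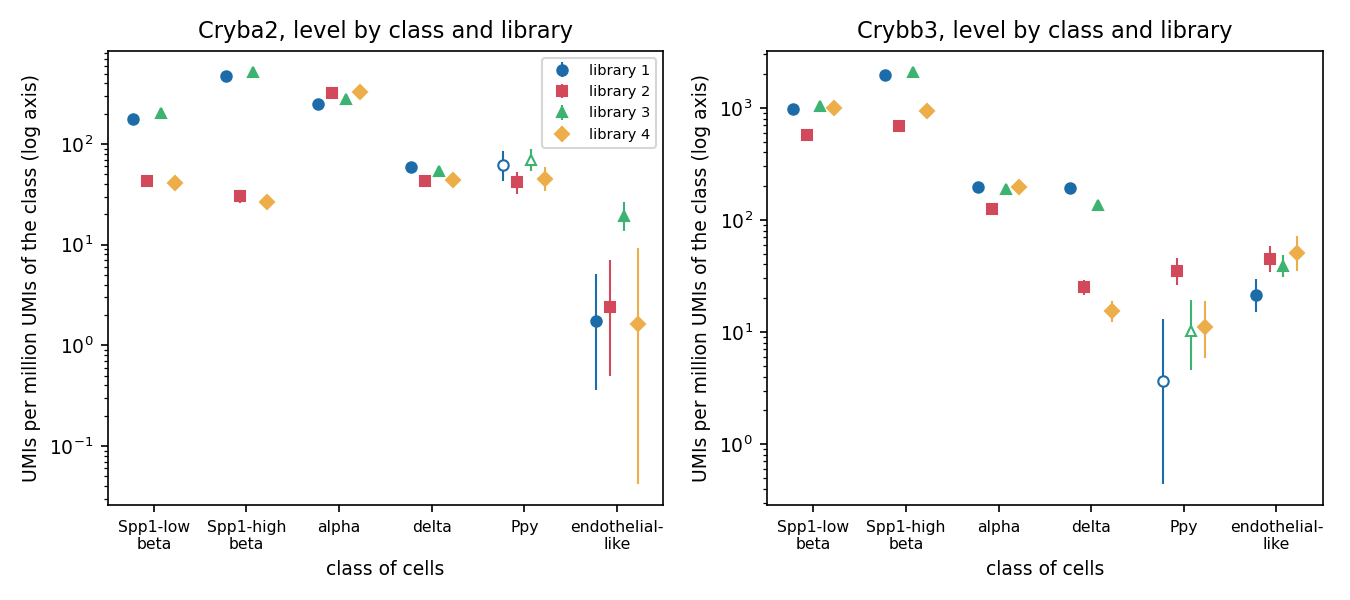
Level of Cryba2 (left) and Crybb3 (right) in each class and library, as CPM of the class on a log axis; points are libraries, bars are exact 95% Poisson intervals, and open points are classes of under 50 cells. Cryba2 in alpha cells lies between 247 and 324 CPM in every library, while in Spp1-high beta cells it lies at 469 and 514 in libraries 1 and 3 and at 30.2 and 26.5 in libraries 2 and 4.

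Crybb3 was led by beta cells in every library. Spp1-high beta cells held 1956, 681, 2088 and 935 CPM in libraries 1 to 4, with intervals of 1936 to 1978, 659 to 703, 2067 to 2110.2 and 915 to 955. Spp1-low beta cells held 977 CPM (959 to 995), 571 (567 to 575), 1031 (1016 to 1046) and 1002 (995 to 1009) in libraries 1 to 4. Library 4 was therefore as high as libraries 1 and 3 in Spp1-low beta cells, whereas Cryba2 was low there. The order of the beta classes also differed, since Crybb3 was higher in Spp1-low than in Spp1-high beta cells in library 4 and lower in libraries 1 to 3.

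Alpha cells held less Crybb3, at 198, 124, 188 and 194 CPM in libraries 1 to 4. Of these alpha UMIs, 56.7%, 57.7%, 62.4% and 69.6% came from 13, 18, 14 and 43 cells at 1000 CPM or more. The alpha level without those cells was not computed. Delta cells held 191, 25.1, 135 and 15.4 CPM. Few delta cells carried much of this: 3, 1, 2 and 1 cells at 1000 CPM or more carried 69.3%, 33.1%, 65.2% and 21.8% of the delta UMIs of Crybb3. Without them the delta level was 62.4, 16.8, 47.8 and 12.1 CPM. Those 3 cells of library 1 had a median of 101713 UMIs and 1.89% of UMIs from Ins2, beside 20667 UMIs and 0.0632% in the other delta cells, and whether they were doublets was not tested. Ppy cells held 3.62, 34.9, 10.1 and 11.1 CPM of Crybb3, from 2, 53, 9 and 13 UMIs.

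The level that free RNA can give was read in cells that make no islet hormone. Endothelial-like cells, named from at least 3 detected markers, held Cryba2 at 1.74, 2.41, 19.3 and 1.65 CPM in libraries 1 to 4, from 3, 3, 39 and 1 UMIs, of which 30 in library 3 came from 1 cell. The Cryba2 of delta and Ppy cells lay above these values in every library. For Crybb3 the same cells held 21.5, 45.04, 39.0 and 51.04 CPM. Macrophage-like cells held less of it, at 14.3, 15.1, 13.8 and 13.7 CPM. Per 1000 Ins2 UMIs, endothelial-like cells had 30.8, 3.59, 25.2 and 6.94 UMIs of Crybb3 in libraries 1 to 4. Spp1-low beta cells had 3.55, 1.58, 3.87 and 2.81, and Spp1-high beta cells 12.6, 1.97, 12.4 and 2.73. Macrophage-like cells had 11.7, 1.26 and 19.0 in libraries 1 to 3. The part of free RNA in these levels was not tested. Crybb3 in Ppy cells lay below the endothelial-like level in all 4 libraries, and above the macrophage-like level in library 2. Delta cells of libraries 2 and 4 lay below the endothelial-like and above the macrophage-like level, and without their 1 high cell each their 16.8 and 12.1 CPM were near the latter. Expression was not told apart from background there.

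Shares of cells with a UMI were compared after each cell was thinned to 5000 UMIs, because beta cells were deeper (medians of 37222 to 47768 UMIs) than alpha (11122 to 12744), delta (14438 to 22381) and endothelial-like cells (7003 to 11409). Cryba2 was then found in 60.1%, 63.5%, 67.7% and 68.9% of alpha cells in libraries 1 to 4. It was found in 70.2%, 13.4%, 73.5% and 12.8% of Spp1-high beta cells and in 39.7%, 17.5%, 47.3% and 17.1% of Spp1-low beta cells. In delta cells the share was 23.2%, 19.6%, 16.3% and 20.1%, above the 0.806%, 0%, 2.11% and 0% of endothelial-like cells. For Crybb3, Spp1-high beta cells reached 88.1%, 66.9%, 83.4% and 62.1% and Spp1-low beta cells 50.7%, 53.2%, 48.2% and 60.4%. Alpha cells reached 27.5%, 20.6%, 21.5% and 28.1%, and endothelial-like cells 5.65%, 16.0%, 14.8% and 23.3%. The intervals of these last classes overlapped in libraries 2, 3 and 4, so the alpha share there was not told apart from that of endothelial-like cells. In macrophage-like cells the share was lower, at 2.40%, 6.49%, 4.92% and 5.71%. The share in delta cells was 10.8%, 8.64%, 7.45% and 6.01%. Its interval overlapped that of macrophage-like cells in libraries 2, 3 and 4, and in library 1 it lay above it (6.73% to 16.2% beside 0.656% to 6.02%). Unthinned, Cryba2 was found in 76.0% to 83.8% of alpha cells and Crybb3 in 31.7% to 39.2%. Unthinned, Crybb3 was found in 14.1% to 34.5% of endothelial-like cells.

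**Figure D2:**
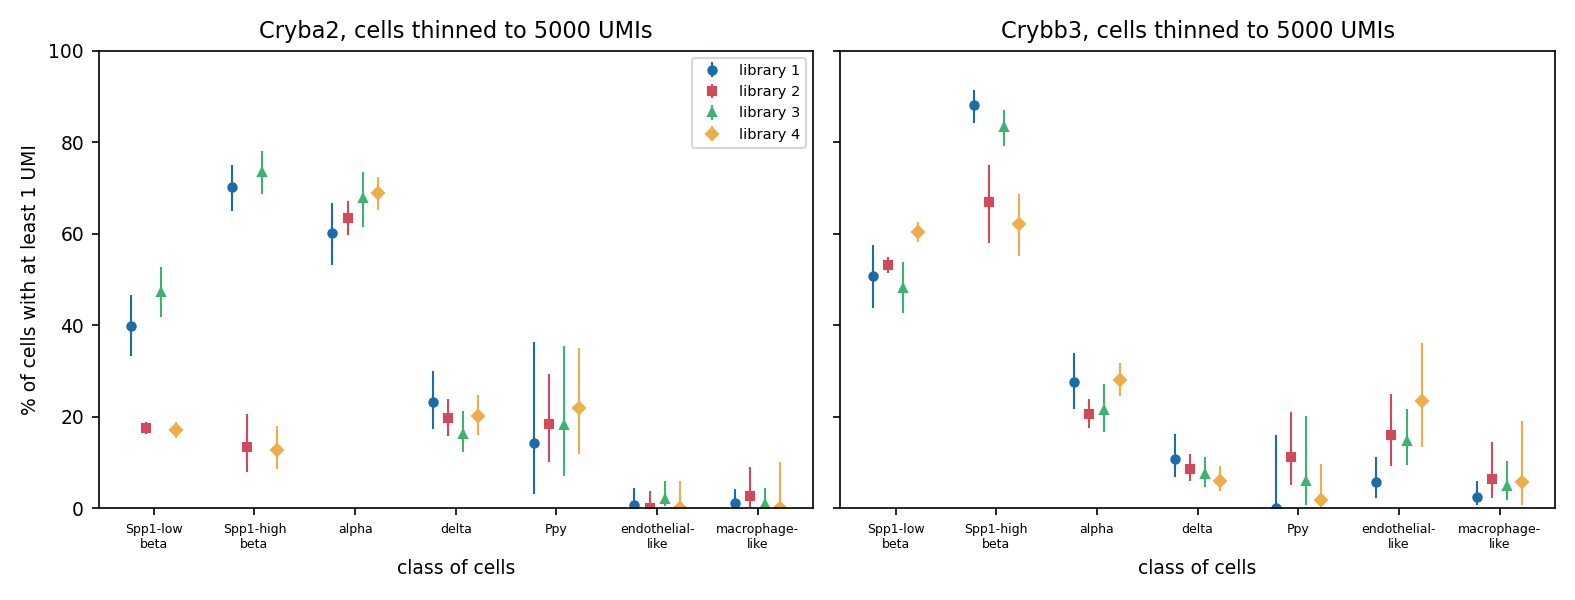
Percent of cells with at least 1 UMI of Cryba2 (left) and Crybb3 (right) after thinning each cell to 5000 UMIs, by class and library; bars are exact 95% binomial intervals. For Cryba2 the alpha points, 60.1% to 68.9%, lie far above the endothelial-like points, 0% to 2.11%, while for Crybb3 the alpha points, 20.6% to 28.1%, lie near endothelial-like points of up to 23.3%.

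Within libraries the 2 genes separated alpha from beta cells in different ways. The log2 ratio of Crybb3 in Spp1-low beta over alpha cells was 2.25, 2.12, 2.40 and 2.31 in libraries 1 to 4, and that in Spp1-high beta over alpha cells was 3.24, 2.37, 3.41 and 2.21 (all with 10 CPM added to each level). A ratio at least 2-fold higher in every library was found for 0.953% of 12796 genes in the former and 1.07% of 12132 in the latter comparison. The median over all genes was -0.28 and -0.24, and -0.01 and -0.06 on a total without the hormone genes. For Cryba2 the ratio of Spp1-low beta over alpha cells was -0.46, -2.65, -0.44 and -2.70. On the total without hormone genes it was 0.02, -2.07, -0.11 and -2.14, so in libraries 1 and 3 the direction depended on the scale or lay near 0. Spp1-high beta over alpha cells gave 0.90, -3.04, 0.86 and -3.20, which is higher in libraries 1 and 3 and lower in libraries 2 and 4 under both scales. The Cryba2 ratio of alpha over delta cells was 1.89, 2.65, 2.19 and 2.63, where 1.77% of 12002 genes were at least 2-fold higher in every library. Crybb3 over delta cells reached 2.29, 4.05, 2.84 and 5.31 in Spp1-low beta cells (0.626% of 12945 genes higher at that size). At the median over libraries this ratio went from 3.45 to 4.30 without the few delta cells described above. Beta cells as high in Crybb3 were kept, so the ratio could only rise.

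Between the beta classes neither gene kept its direction. Spp1-high over Spp1-low beta cells gave 1.36, -0.39, 1.30 and -0.49 for Cryba2 and 0.99, 0.25, 1.01 and -0.10 for Crybb3 in libraries 1 to 4. Of 13197 genes, 0.0303% were at least 2-fold higher and 0.00758% at least 2-fold lower in every library. Along Spp1 in finer steps, beta cells of library 1 went from 66.96 CPM of Cryba2 at under 0.01% of UMIs from Spp1 to 152 at 0.01 to 0.1% and 524 at 0.1 to 0.25%. Library 3 gave 95.2, 258 and 464 CPM at the same steps. Cryba2 was thus already high below the split in these libraries. Just under it, at 0.25 to 0.5%, Cryba2 stood at 389 and 324 CPM in libraries 1 and 3, and just over it, at 0.5 to 1%, at 444 and 440.4. Crybb3 stood at 2491 and 2787 CPM just under the split and at 1835 and 2212 just over it.

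Libraries 2 and 4 had no such rise of Cryba2 up to the split. It stood at 46.8 and 44.2 CPM at under 0.01% of UMIs from Spp1 and at 19.8 and 33.4 at 0.5 to 1%, and library 2 reached 52.7 at 1 to 2% in 42 cells. At the lowest Spp1 step the intervals of libraries 2, 4, 1 and 3 were 45.4 to 48.2, 42.3 to 46.1, 60.7 to 73.6 and 89.2 to 101.5 CPM, so the gap between libraries was narrower there than above it. Crybb3 went from 285 and 333 CPM at the lowest step to 2491 and 2787 at 0.25 to 0.5% in libraries 1 and 3. It went from 520.4 to 793 in library 2 and from 980 to 1220.2 in library 4. The median Ins2 share fell along the same steps in library 1, from 33.8% to 12.8%, and in library 3, from 33.4% to 16.8%. In library 2 it was 36.1% and 35.7% and in library 4 35.7% and 34.1%. The part of this smaller insulin share in the rise of CPM was not tested beyond the scale without hormone genes.

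**Figure D3:**
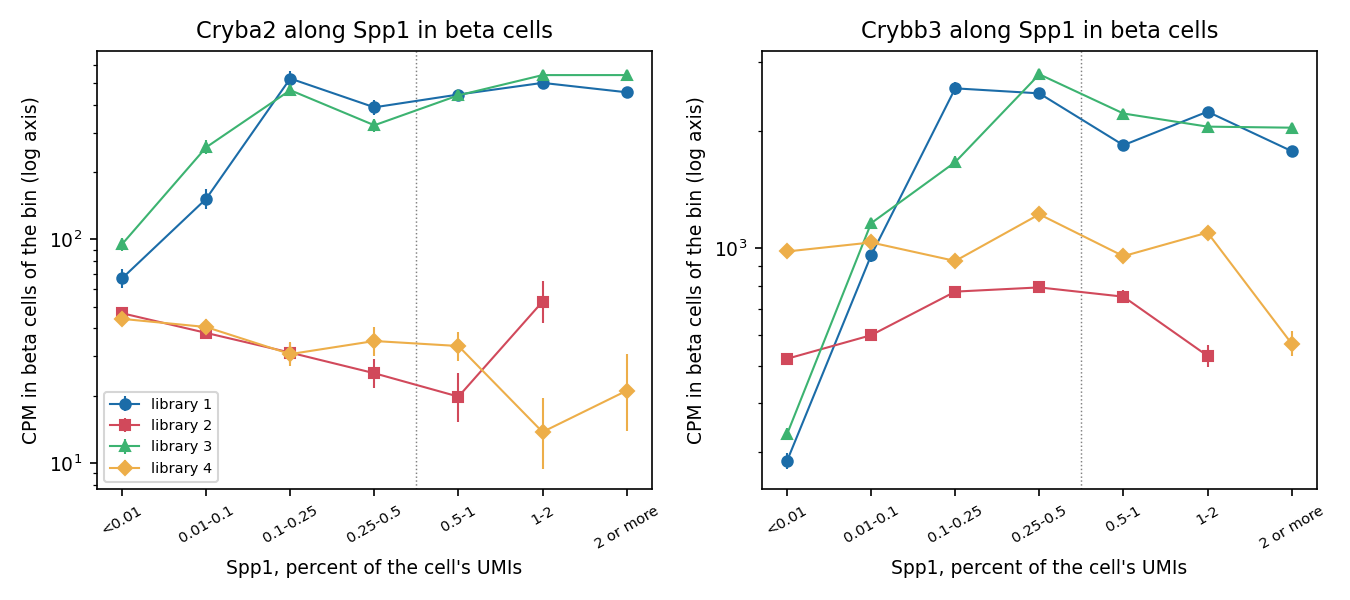
Level of Cryba2 (left) and Crybb3 (right) in beta cells binned by the percent of each cell's UMIs from Spp1, in CPM on a log axis; lines are libraries, bars are exact 95% Poisson intervals, bins of under 20 cells are left out, and the dotted line is the split at 0.5%. Cryba2 in libraries 1 and 3 climbs from 66.96 and 95.2 CPM to 524 and 464 in the third bin, and in libraries 2 and 4 it is at most 52.7 CPM in any bin.

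Crybb3 was spread very unevenly over the cells of a class. In Spp1-low beta cells of library 2 the median cell held 5 UMIs, 10% of cells held 72 or more, and the highest held 630. In library 3 the median was also 5, and the highest cell held 1535 UMIs. The 10% of Spp1-low beta cells with the most Crybb3 carried 56.8%, 59.4%, 65.1% and 56.5% of its UMIs in libraries 1 to 4. Genes within 2-fold of its level had medians of 25.01%, 24.1%, 26.3% and 23.8%, and only 4 of 125, 3 of 178, 3 of 127 and 4 of 105 of them were more concentrated in libraries 1 to 4. In library 2 those more concentrated were Pyy, Sst and Spp1, which are a gut and islet peptide, the delta hormone and osteopontin. This measure was chosen after the values were seen.

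In alpha cells the unevenness was sharper. A median of 0 UMIs of Crybb3 per cell was found in every library, yet single cells held up to 75, 94, 90 and 89 UMIs in libraries 1 to 4. The 10% of alpha cells with the most carried 80.9%, 83.0%, 86.3% and 82.8% of the UMIs, and 15 of 1033, 5 of 1714, 4 of 1048 and 2 of 1042 genes of like level were more concentrated. Cryba2 in alpha cells was less uneven than Crybb3, with 38.0%, 37.8%, 35.5% and 37.1% of its UMIs in the top 10% of cells, beside medians of 32.1%, 29.2%, 34.0% and 28.4% for genes of like level. Of those genes 114 of 769, 22 of 506, 229 of 602 and 19 of 525 were more concentrated in libraries 1 to 4. In Spp1-low beta cells Cryba2 was uneven as well, at 55.3%, 48.4%, 55.6% and 54.1%, and 4 of 876, 50 of 2828, 9 of 765 and 41 of 2851 genes of like level exceeded it.

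**Figure D4:**
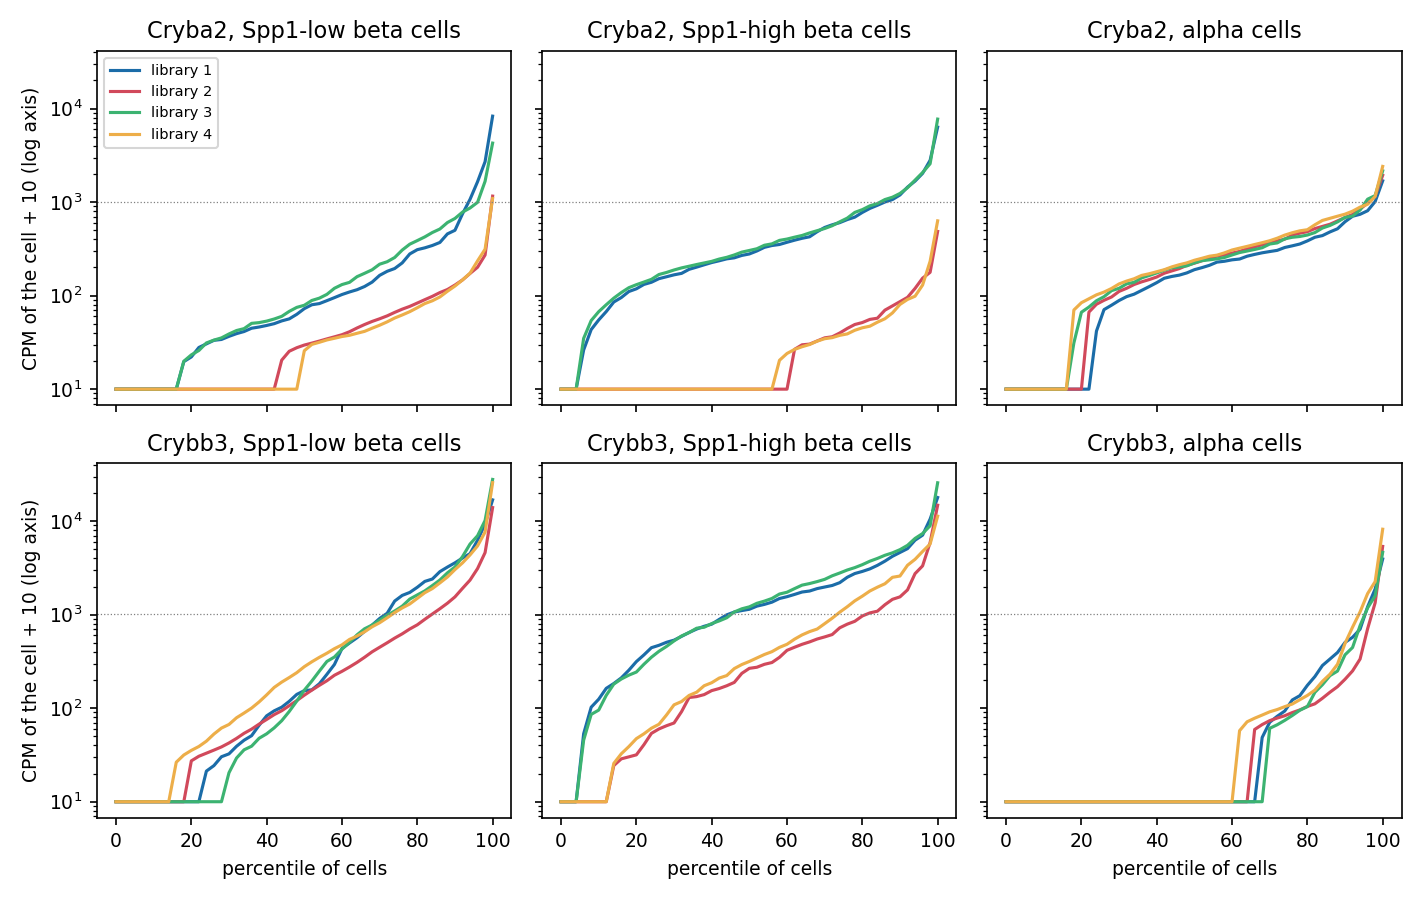
CPM of single cells, with 10 added, on a log axis against the percentile of cells, for Cryba2 (top) and Crybb3 (bottom) in Spp1-low beta, Spp1-high beta and alpha cells; lines are libraries and the dotted line marks 1000 CPM. Crybb3 in alpha cells is at 0 in the median cell of every library and passes 1000 CPM in 2.51% to 6.34% of cells.

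Cells with 1000 CPM or more of Crybb3 were set apart by a limit chosen after the values were seen. Whether they form a type was not tested. They made up 28.8%, 16.1%, 27.7% and 26.6% of Spp1-low beta cells, 55.6%, 19.1%, 55.1% and 26.9% of Spp1-high beta cells and 5.28%, 2.51%, 5.04% and 6.34% of alpha cells in libraries 1 to 4. Of the alpha cells, 19, 23, 18 and 49 lay between 500 and 2000 CPM, near that limit. The 13, 18, 14 and 43 alpha cells above it had median Ins2 shares of 0.0718%, 1.20%, 0.158% and 0.629% of UMIs, and the other alpha cells had 0.0724%, 1.28%, 0.0922% and 0.648%. Their median UMIs were 14687, 13620, 13243 and 11310.0, beside 11723, 12274, 12744 and 11106. Insulin transcripts and depth were thus close between these cells, apart from the higher Ins2 share in library 3 and the greater depth in library 1. Their Spp1 share was higher in all 4 libraries, at 0.0769%, 0.0483%, 0.0503% and 0.0346% of UMIs beside 0.0347%, 0.0122%, 0.0161% and 0.0131%, and its part was not tested. Their Cryba2 was 369, 373, 242 and 454 CPM, beside 240, 319, 282 and 316 in the other alpha cells, so it was higher in libraries 1, 2 and 4 and lower in library 3. In library 3 the counting intervals overlapped (186 to 309 and 265 to 299 CPM), and so they did in library 2 (302 to 456 and 307 to 331).

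In Spp1-low beta cells the same limit split Cryba2 by amounts that differed between libraries. Cells at 1000 CPM or more of Crybb3 held 417, 43.6, 433 and 49.3 CPM of Cryba2, and the rest held 89.3, 42.5, 127 and 38.4. The counting intervals lay far apart in libraries 1 and 3, and did not overlap in library 4 (46.3 to 52.5 and 36.8 to 40.1 CPM). In library 2 they overlapped (40.9 to 46.4 and 41.3 to 43.7 CPM). The high cells of libraries 1 and 3 also had less insulin, with median Ins2 shares of 13.5% and 13.2% beside 31.4% and 31.3%, and more Spp1, at 0.156% and 0.138% of UMIs beside 0.00754% and 0.00382%. In libraries 2 and 4 the Ins2 shares were 35.1% and 34.4% beside 36.0% and 35.5%. After thinning, Spearman's rho between the 2 genes over Spp1-low beta cells was 0.48, 0.03, 0.34 and 0.08 in libraries 1 to 4, over 219, 3041, 328 and 1928 cells that share a library. In alpha cells it was 0.13, 0.03, 0.00 and 0.04, and in Spp1-high beta cells 0.09, 0.10, 0.05 and 0.12. These are weak values in sparse counts, other than those of Spp1-low beta cells in libraries 1 and 3.

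**Figure D5:**
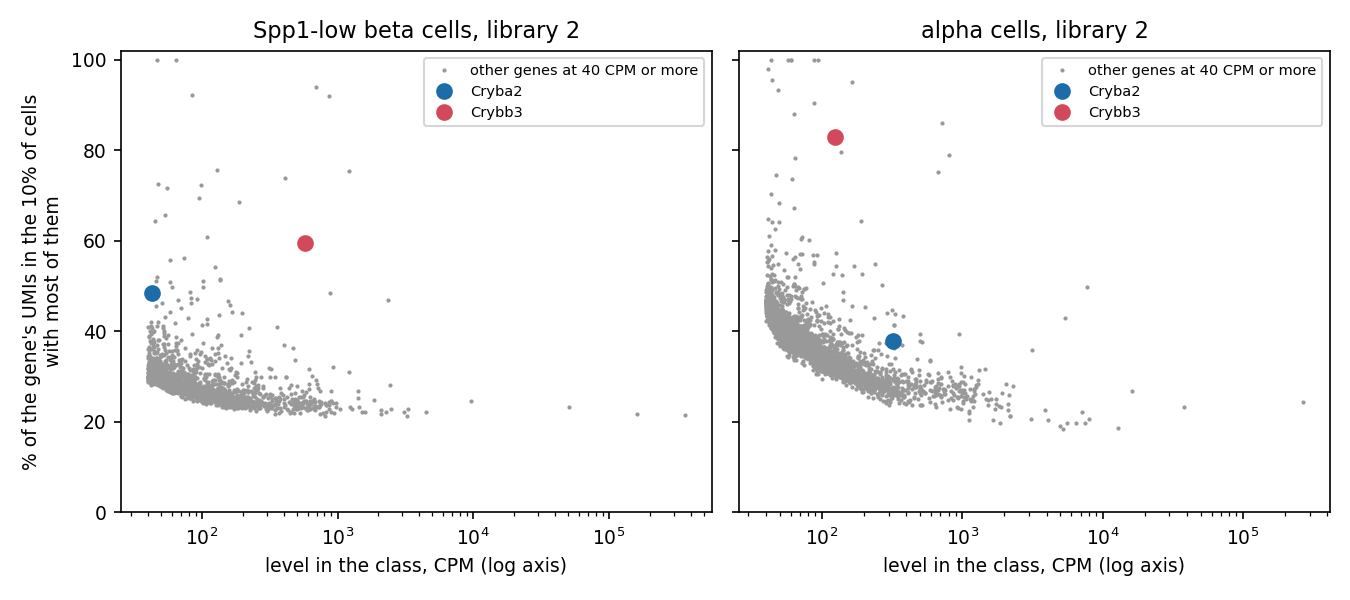
Percent of each gene's UMIs held by the 10% of cells with most of them, against the gene's level in CPM on a log axis, in Spp1-low beta (left) and alpha cells (right) of library 2, for genes at 40 CPM or more. Crybb3 stands at 59.4% in beta cells and 83.0% in alpha cells, above nearly all genes of like level, and Cryba2 in alpha cells stands at 37.8%.

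The other crystallins were low or absent in these cells. Of 22 other genes that carry the name, 0 reached 50 CPM in any hormone class of any library, 13 stayed under 1 CPM and 3 (Crygb, Crygd and Crygf) had no UMI in the whole table. Crybb2, another basic beta-crystallin and the nearest protein-coding neighbour of Crybb3 on its lower-coordinate side, lies 5721 bases away and had 3 UMIs in the whole table, beside 296319 for Crybb3. A further basic beta-crystallin, Crybb1, reached at most 2.05 CPM, and the acidic Cryba1 and Cryba4 at most 0.146 and 0.936. The highest of the list was Cryzl1, a quinone oxidoreductase relative, at up to 49.9 CPM in delta cells. Cryab, the small heat shock protein, reached 35.01 CPM in alpha cells of library 1 and 1.43 to 8.92 in those of libraries 2 to 4. In that library the 13 alpha cells above 1000 CPM of Crybb3 held 98 Cryab UMIs and the other 233 held 13. In library 3 the 14 such cells held 19 and the other 264 held 17, and in libraries 2 and 4 the 18 and 43 such cells held 0. Of 10 list members with enough counts in Spp1-low beta and alpha cells, 0 were 2-fold apart in every library, beside 0.953% of all genes higher and 2.75% lower. With 10 CPM added to each level, a gene under 10 CPM in both classes cannot reach 2-fold. Of the 22 genes, 15 stayed under 10 CPM in every hormone class, so the count of 0 says nothing about such genes. Crybg3, a large relative with Greek key folds, was at least 2-fold higher in Spp1-low beta than in delta cells and in alpha than in delta cells, as were 0.626% and 1.77% of all genes, at medians of 18.8, 21.5 and 3.17 CPM in Spp1-low beta, alpha and delta cells.

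Genes that mark lens fibre cells were also low. Of 12 such genes, 11 stayed under 10 CPM and 5 had no UMI, among them Mip, the lens water channel, and Lim2. The exception was Hspb1, a small heat shock protein of many tissues, at up to 59.9 CPM.

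Transcription factors from a list of lens and islet factors were present in part. Of 23 such genes, 9 reached 50 CPM in a hormone class, among them the islet factors Neurod1 and Isl1. Another 7 stayed under 1 CPM, among them the lens factors Foxe3, Pitx3, Sox1 and Sox2. Mafa stood at 312, 709, 303 and 532 CPM in Spp1-low beta cells of libraries 1 to 4 and at 1.58, 25.9, 24.3 and 9.03 in alpha cells. Mafa was thus far higher in Spp1-low beta than in alpha cells in every library. In libraries 2 and 4 Mafa was higher in Spp1-low beta cells than in libraries 1 and 3, where Cryba2 was higher. In Spp1-high beta cells Mafa stood at 394, 296, 512 and 249 CPM in libraries 1 to 4. There Mafa was higher in libraries 1 and 3 by CPM, as Cryba2 was. Ins2 took a median of 15.1% and 16.3% of UMIs in those cells, beside 34.3% and 33.6% in libraries 2 and 4. The levels of these factors were not read on the total without hormone genes, so this order holds for CPM only.

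Pax6 stood between 179 and 289.8 CPM in all classes and libraries. Neurod1, a factor of endocrine cells, stood at 447, 190 and 489 CPM in Spp1-high beta cells of libraries 1 to 3 and 200.4 in library 4. In alpha cells it stood at 402, 412, 460 and 389.5 CPM. By CPM, Neurod1 in Spp1-high beta cells was thus higher in libraries 1 and 3, as Cryba2 was. So were Pax6, Isl1, Meis2, Prox1 and Sox4 in the same cells, with Isl1 at 169, 116, 180 and 130 CPM. Mafg did not keep this order, at 69.5, 68.9, 76.5 and 72.4 CPM. Prox1 had medians of 40.7 CPM in Spp1-low beta, 114 in alpha and 115 in delta cells, and Isl1, Meis2, Sox4 and Mafg were also past 50 CPM. Between Spp1-low beta and alpha cells, Mafa was at least 2-fold higher in every library (0.953% of all genes were higher at that size). Meis2 was at least 2-fold lower in every library (2.75% of all genes were lower at that size). Over delta cells, 1 of 15 was higher in Spp1-low beta cells (Mafa, beside 0.626% of all genes higher). Of the same 15, 4 were lower (Prox1, Sox11, Meis2 and Isl1, beside 2.66% of all genes lower). In alpha over delta cells Neurod1 was higher, beside 1.77% of all genes higher, and Sox11 lower, beside 2.46% of all genes lower. Over alpha cells, Spp1-high beta cells had Mafa higher, where 1.07% of all genes were higher and 2.48% of all genes were lower at that size. Of 15 measured in Spp1-high over Spp1-low beta cells, 0 were apart, beside 0.0303% of all genes higher and 0.00758% lower.

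Of the 4 nearest protein-coding genes around each, none had a median in any class near that of Cryba2 in alpha cells or of Crybb3 in beta cells. Fev, a transcription factor gene 4514 bases from Cryba2, had a median of 36.6 CPM in alpha, 18.2 in delta and 4.35 in Spp1-low beta cells. Cdk5r2, a neuronal kinase activator, had 16.9 CPM in alpha and 10.7 in Spp1-low beta cells, and Cfap65 and Ihh on the other side had medians under 1 CPM in all classes. Beside Crybb3, Grk3, a receptor kinase, had medians of 31.9 CPM in Spp1-low beta and 42.3 in alpha cells. On the other side 2900026A02Rik had 30.5 and 64.4 CPM, and Tmem211 had 0 UMIs.

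Across the 18 combinations of class and library with at least 50 cells, the pattern of Cryba2 was most like that of Slc38a5, an amino acid transporter, with a Pearson r of 0.95 on the log2 scale among 3876 genes. Next came Clip1, Cyb5r3, Ube3c and Hipk3, at 0.95 to 0.94. Slc38a5 stood at 108, 91.7, 99.6 and 78.9 CPM in alpha cells of libraries 1 to 4. In Spp1-high beta cells it stood at 76.4, 1.29, 63.9 and 1.92, high and low in the same libraries as Cryba2. Crybb3 was most like Wars, a tryptophan tRNA ligase, Madd, the islet glucose-6-phosphatase gene G6pc2, Ankrd10 and Dapp1, at 0.95 to 0.94. The r between Cryba2 and Crybb3 themselves was 0.38. The points share libraries and cells of a class share depth, so these values describe likeness only.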

How the data were processed

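Single-cell RNA-seq of islet cells from 4 samples was analysed. The deposited values are UMI counts per gene and cell, which the authors made with Cell Ranger 6.1.2, per the file headers; the submitters' processing notes name the build mm10. Gene identifiers and cell barcodes with library numbers were read from the other deposited files, whose columns hold names and no measurement. The library numbers match no label, so genotypes were not compared and no p-value is given. The members and lists were chosen with earlier results of these data known.

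Cells with at least 500 genes and at most 20% mitochondrial UMIs were kept. No doublet caller was used, and cells past more than 1 hormone threshold were left out. UMIs were summed per class and library. Log2 ratios used a pseudocount of 10 CPM and classes of at least 50 cells. A gene counted as apart at 2-fold or more in the same direction in every library, with at least 10 UMIs in either class. Cells past no threshold were named "-like" from at least 3 detected markers of a fixed list, more than of any other list. Named genes were the members, list members at 50 CPM or more in a hormone class, and the 5 genes most like each member. Others, such as the neighbours, Cryzl1, Cryab and Crybg3, were named after their values were seen. Python 3.11.15, numpy 2.4.6, scipy 1.17.1, pandas 2.3.3 and matplotlib 3.10.9 were used, and the ratio, thinning and likeness steps were tested on simulated data. Library totals were 82963911, 178396311, 85266513 and 110800927 UMIs. Alternatives were a stricter cell filter, other thresholds, scales, pseudocounts and depths, and leaving out each library. Some results for 1 listed gene are not reported here.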

Additional observations from a re-analysis of the deposited data

Results flagged for a closer look

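Cells past more than 1 hormone threshold entered no comparison, and both genes gave signal in them above the limit that a count of 0 allows. Cryba2 stood at 203 CPM in library 1, 98.8 in library 2, 203 in library 3 and 116 in library 4. Crybb3 stood at 735, 253, 768 and 486 CPM. These cells numbered 94, 356, 182 and 254 in libraries 1 to 4. Those past the Ins2 and Gcg thresholds, 163 in all, held 429, 131, 369 and 148 CPM of Cryba2 and 710.4, 588, 795 and 853 of Crybb3. Those past the Ins2 and Sst thresholds, 313 in all, held 172, 41.5, 198 and 50.5 CPM of Cryba2 and 884, 176, 1022 and 512 of Crybb3. Whether they are doublets was not tested.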

How the results depend on the processing

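Of 517 alternative values, 438 stayed on their side or within the spread between libraries, 78 moved and 1 reversed. A ratio could count as reversed only if all 4 libraries shared its direction. Changes of sign in ratios whose direction differed between libraries are therefore not in that count. All medians here are over libraries. The reversed value was the log2 ratio of Crybb3 in alpha over delta cells, 1.19 as reported and -0.039 with cells past several thresholds kept in each class they passed. That setting also gave Cryba2 at 261 CPM in alpha, 82.8 in delta and 112 in Ppy cells, and Crybb3 at 256, 295 and 227. It gave log2 ratios of 1.79 for Crybb3 in Spp1-low beta over alpha, 1.76 over delta and 1.55 for Cryba2 in alpha over delta cells. Genes apart numbered 71 higher and 234 lower, 23 and 165, and 127 and 138 in those comparisons, and shares were 23.2% and 32.6% for Cryba2 and 16.9% and 13.8% for Crybb3 in delta and Ppy cells. Doubled thresholds gave 51.2 CPM of Cryba2 and 80.2 of Crybb3 in Ppy cells, 772 of Crybb3 in Spp1-low beta cells, a ratio of 2.08 over alpha cells, a Ppy share of 14.1% and 2 genes lower between beta classes. Without the 6% of cells with most UMIs, Crybb3 was 1253 CPM in Spp1-low beta cells, the ratio over alpha cells 2.60 and the count lower between beta classes 3. A Spp1 split at 0.25% gave 697 CPM and a ratio of 1.95, and a split at 1% a ratio of 2.41. Without hormone genes, Cryba2 was 219 CPM in Spp1-low beta, 426 in alpha, 66.01 in delta and 80.5 in Ppy cells. Crybb3 was 1868 in Spp1-low beta, 2539 in Spp1-high beta, 268 in alpha and 42.6 in Ppy cells, with a ratio of 2.82 over alpha cells. Genes apart were then 3 lower between beta classes, 313 higher and 221 lower in Spp1-low beta over alpha, 268 higher in Spp1-high beta over alpha, and 209 higher and 215 lower in Spp1-low beta over delta cells. The mean of single-cell CPM gave a ratio of 2.501 and 2 genes lower between beta classes. A pseudocount of 1 gave 18 and 4 genes between beta classes, 287 and 1152, 305 and 852, 197 and 979, and 491 and 678 in the other comparisons. Thinning to 3000 UMIs gave shares for Cryba2 of 49.5% in alpha, 13.0% in delta and 13.0% in Ppy cells, and 18.004% for Crybb3 in alpha cells. Unthinned, Cryba2 shares were 69.7%, 80.7%, 51.2% and 56.7% in Spp1-low beta, alpha, delta and Ppy cells, and Crybb3 shares 79.4%, 90.6%, 34.2%, 19.6% and 25.9% with Spp1-high beta cells second. The cause was not tested for any of these, apart from what each setting itself removes or adds. Leaving out each library gave 4 to 8 genes higher and 1 to 2 lower between beta classes, 8 without library 3 and 2 without library 1 or library 2. With it, the median ratio of Cryba2 ran from -3.04 to 0.86 in Spp1-high beta over alpha and from -0.39 to 1.30 between beta classes, so its direction rested on which libraries entered. Of the 5 genes most like each member, Spearman's rho kept 0 for Cryba2 and 1 for Crybb3, and so did adding other classes. Leaving out the delta cells at 1000 CPM or more of Crybb3, chosen after seeing the data, gave 32.3 CPM in delta cells. It gave a ratio of 2.05 in alpha over delta cells, which could only rise because such alpha cells were kept. No paired analysis was possible because the library numbers match no sample label.

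Few cells limited the Ppy class, with 23 and 37 cells in libraries 1 and 3, and shares near those of endothelial-like or macrophage-like cells were not told apart from background. All intervals cover counting error only, and with no library tied to a genotype nothing here speaks to Xbp1.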

Other observations

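A few cells outside the hormone classes carried much Crybb3. In ductal-like cells of libraries 1 and 3 it stood at 123 and 261 CPM, and 15 of 706 and 19 of 372 cells had 1000 CPM or more. Those cells had median Ins2 shares of 3.01% and 3.64% of UMIs, under the 5% that defined beta cells, beside 0.0420% and 0.0641% in the other ductal-like cells. Their median depths were 26487 and 36612 UMIs, beside 15221 and 15533. Their Cryba2 was 233 and 305 CPM, beside 7.48 and 22.4. They carried 83.4% and 86.5% of the Crybb3 UMIs of ductal-like cells in libraries 1 and 3. Their median Ins1 shares were 2.27% and 2.64%, beside 0.0183% and 0.0265%. Their Spp1 shares were lower, at 0.616% and 0.524% beside 3.64% and 3.04%. Whether they were doublets, or beta cells under the Ins2 limit, was not tested.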
